A study of Rattus norvegicus with 16 samples.

Results

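Sutured rat corneas that had received anti-*Vegf* eye drops were compared with naïve corneas, which had neither sutures nor drops. The comparison used 8 of the 16 arrays of the series, 4 per group, and every probe set that carries 1 gene symbol, which were 20826 of the 31042 probe sets tested and gave 14217 genes. Male Wistar rats aged 12 to 16 weeks had received 2 sutures in the temporal cornea at 1.5 mm from the limbus of the right eye. The antibody, a goat polyclonal antibody against rat *Vegf*, was dropped on the eye 4 times a day for 2 days, 8 drops in all, and each array holds the RNA of 1 cornea. The methods of the study give its strength as 20 µg/ml, whereas the sample labels give 20 mg/ml, and which one holds could not be settled here. The area taken also differs between these sources, being the part between sutures and temporal limbus without the limbal rim in the methods and the cornea without scleral rim in the labels. The naïve group differs from the anti-*Vegf* group by sutures, drops and antibody at once, and these cannot be told apart in this comparison. The 4 IgG arrays, from sutured corneas given goat IgG at the same strength, and the 4 dexamethasone arrays, from sutured corneas given dexamethasone at 1 mg/ml, are used only to place the anti-*Vegf* values. Corneas had to pass a limit on RNA integrity to be put on arrays. In RNA of corneal tissue, fewer cells of a type and less RNA per cell cannot be told apart.

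The cornea is a transparent tissue without blood vessels, made of a stratified epithelium, a collagen stroma with keratocytes, and an inner endothelium that pumps fluid. A suture injures epithelium and stroma, draws leukocytes from the limbal vessels into the tissue and, after some days, brings new vessels in from the limbus. Vascular endothelial growth factor A, the product of *Vegfa*, drives this ingrowth through the receptor *Kdr* on endothelial cells, and an antibody against it removes the ligand outside the cell, so that the mRNA of the ligand is not its direct target.

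All values are log2 signals per probe set, and a difference of 1 on this scale is a doubling of the signal. A gene counted as differentially expressed (DEG) when limma gave an adjusted p below 0.05 together with a change of 1.5-fold or more, and "rose" and "fell" are used only of DEGs. Values are given in the order of replicates 1 to 4 of each group. *Krt12*, the keratin that defines corneal epithelium, read 14.71, 14.72, 14.65 and 14.70 on the anti-*Vegf* arrays and 14.74, 14.79, 14.77 and 14.76 on the naïve arrays, so that the tissue matched its label on each array. Each array correlated with the others of its own group with a mean r of 0.991 to 0.994 across genes, and with those of the other group with 0.960 to 0.971. Bacterial poly-A controls, which are added to the RNA before labelling, had a mean of 6.88 ± 0.12 (SD, n = 4) on the anti-*Vegf* arrays and 5.10 ± 0.11 on the naïve arrays (exact permutation test, 2-sided, p = 0.029, the smallest that 4 against 4 allows). The hybridization controls differed by −0.183 (exact permutation p = 0.057), the 5′ minus 3′ difference of beta-actin by 0.416 (exact permutation p = 0.23) and that of *Gapdh* by 0.19 (exact permutation p = 0.057). On naïve replicates 1 to 4 the difference was −1.69, −1.75, −0.871 and −0.823 for beta-actin and −0.432, −0.431, −0.192 and −0.16 for *Gapdh*, lower on replicates 1 and 2 than on replicates 3 and 4. Whether these control values play a part in the gene results was not tested.

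The cornea 2 days after suturing under anti-*Vegf* treatment differed widely from the naïve cornea. Of 14217 genes, 1814 (12.8%) were DEGs, of which 970 (6.82% of all genes) were higher and 844 (5.94%) lower in anti-*Vegf* treated corneas. The rises were larger than the falls. At least 4-fold changes were found in 125 rises and 25 falls, at least 8-fold changes in 51 rises and 2 falls, and the 10 genes with at least 32-fold change had all risen. Genes that rose had a median naïve signal of 7.23 and genes that fell one of 8.45, beside 7.68 for all genes. The median log2 change was 0.96 for genes that rose, −0.81 for genes that fell and −0.01 for all genes. The 4 anti-*Vegf* arrays lay above all naïve arrays in 2134 genes (15% of all) and below them in 2314 (16.3%), together 31.3%, and this held for 95.3% of the genes that rose and 93.0% of those that fell. With the arrays centred on 8 reference genes, 820 genes were higher and 1096 lower, so that the share of rises among DEGs moved from 53.5% to 42.8%. Another 76 genes reached the fold limit without the adjusted p. Of 628 DEGs with a second probe set, 86.6% moved the same way on it and 39.2% were called on it too, beside 61.0% moving the same way among genes that were not DEGs.

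**Figure D1:**
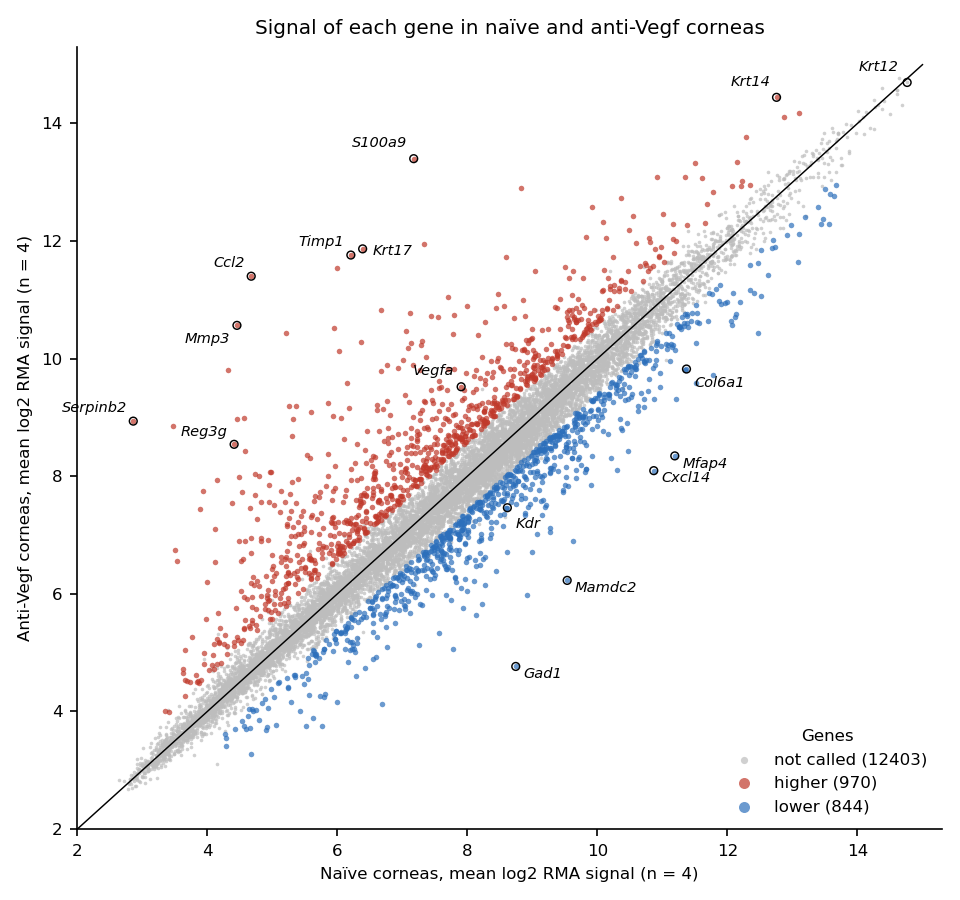
Mean log2 signal of each of 14217 genes on the 4 naïve arrays (horizontal axis) against that on the 4 anti-*Vegf* arrays (vertical axis), with DEGs in colour. The 970 rises lie farther from the diagonal than the 844 falls, with a median change of 0.96 against −0.81, and they start from a lower median naïve signal (7.23 against 8.45).

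The largest rise was that of *Ccl2*, a chemokine that attracts monocytes. It read 11.63, 11.54, 11.40 and 11.03 on the anti-*Vegf* arrays and 5.10, 4.38, 4.77 and 4.45 on the naïve arrays. The groups lay far apart, with a log2 change of 6.73 (standard error 0.30, adjusted p = 1.46e-09, limma), a 106-fold rise. *S100a9* and *S100a8* encode the calprotectin subunits of neutrophils and stressed epithelium. *S100a9* read 13.67, 13.21, 13.44 and 13.29 on the anti-*Vegf* arrays and 7.04, 7.07, 7.32 and 7.27 on the naïve arrays, a rise of 6.23 (standard error 0.39, adjusted p = 4.81e-08), and *S100a8* rose by 5.54 (adjusted p = 2.29e-07). *Mmp3*, the matrix metalloproteinase stromelysin, read 10.38, 10.35, 10.82 and 10.73 on the anti-*Vegf* arrays and 4.09, 4.06, 5.66 and 4.01 on the naïve arrays. Replicate 3 of the naïve group stood above the other naïve arrays for this gene and still lay far below every anti-*Vegf* array, and the rise was 6.11 (standard error 0.35, adjusted p = 2.12e-08). *Serpinb2*, an inhibitor of plasminogen activators, read 9.10, 8.45, 8.99 and 9.22 on the anti-*Vegf* arrays and 2.93, 2.88, 2.74 and 2.89 on the naïve arrays. The naïve arrays were all near the bottom of the scale, and the rise of 6.08 (standard error 0.24, adjusted p = 3.37e-10) had the smallest adjusted p of these genes.

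Among the 12 largest rises were also genes of epithelium and of tissue repair. *Timp1*, an inhibitor of metalloproteinases, read 11.36, 12.04, 11.85 and 11.79 on the anti-*Vegf* arrays and 5.66, 5.53, 6.77 and 6.87 on the naïve arrays, and rose by 5.55 (adjusted p = 2.12e-08). *Krt17*, a keratin of wounded epithelium, read 11.84, 11.38, 11.90 and 12.35 on the anti-*Vegf* arrays and 6.10, 6.19, 6.82 and 6.45 on the naïve arrays, and rose by 5.48 (adjusted p = 1.58e-07). Neither gene overlapped between the groups. *Defb4*, an antimicrobial beta-defensin, read 9.85, 9.77, 10.35 and 9.23 on the anti-*Vegf* arrays and 4.53, 4.07, 4.51 and 4.20 on the naïve arrays, a rise of 5.48 (standard error 0.48, adjusted p = 1.05e-06). *Chi3l1*, a secreted chitinase-like protein of inflamed tissue, read 10.04, 10.72, 10.15 and 10.82 on the anti-*Vegf* arrays and 5.21, 4.91, 5.22 and 5.52 on the naïve arrays, a rise of 5.21 (standard error 0.26, adjusted p = 3.98e-09). Both were low on every naïve array and at 9 or more on every anti-*Vegf* array. The collagenase *Mmp13* rose by 5.39, and the stefin genes *Stfa3* and *Stfa2l2*, inhibitors of cysteine proteases, by 4.63 and 4.58. The stefin genes form a family of similar sequence, so their probe sets may share signal. The dimmer *Stfa3* probe set changed by 0.22 (adjusted p = 0.0554).

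**Figure D2:**
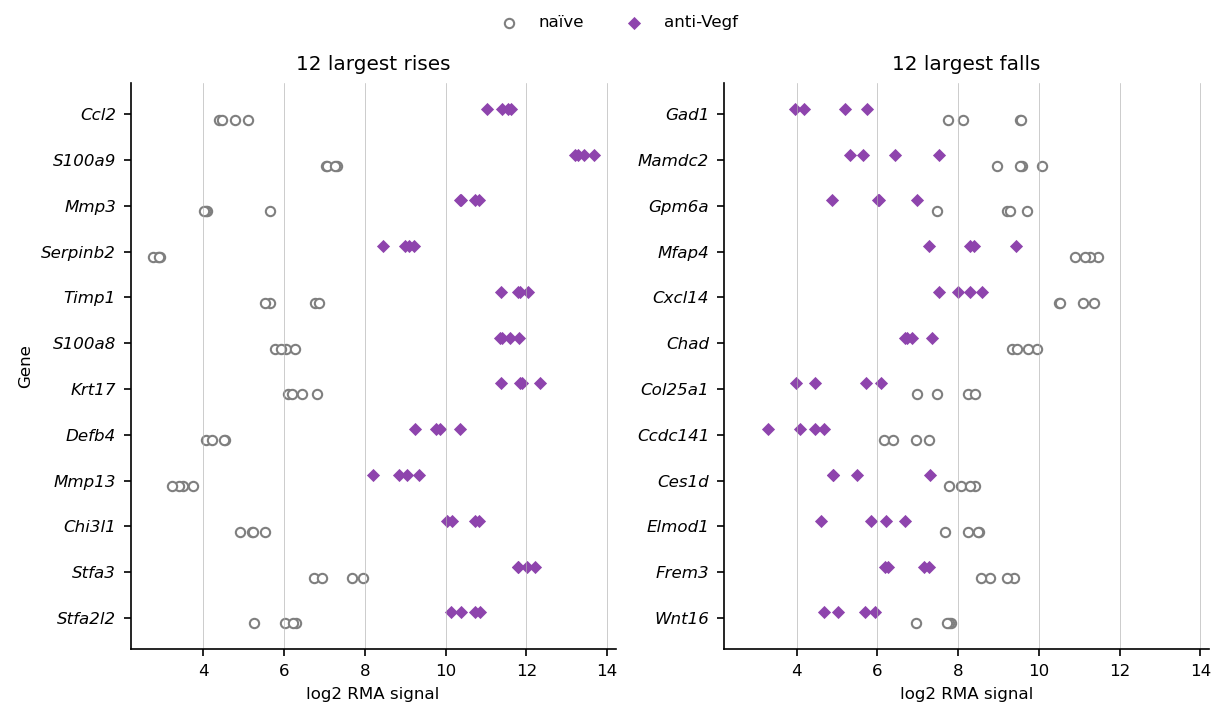
Log2 signal on each of the 4 naïve and 4 anti-*Vegf* arrays of the 12 DEGs with the largest rise and the 12 with the largest fall whose arrays do not overlap. Each point is 1 array, and the rises span up to 6.73 log2 units (*Ccl2*), the falls up to 3.98 (*Gad1*).

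The largest fall was that of *Gad1*, the enzyme that makes the transmitter GABA from glutamate. It read 5.19, 5.75, 3.95 and 4.17 on the anti-*Vegf* arrays and 9.54, 9.56, 8.12 and 7.75 on the naïve arrays. Naïve replicates 1 and 2 lay above naïve replicates 3 and 4, and all 4 lay above every anti-*Vegf* array, with a change of −3.98 on the log2 scale (standard error 0.48, adjusted p = 2.26e-05, limma). The dimmer *Gad1* probe set changed by −0.73 (adjusted p = 1.89e-04). *Mamdc2*, a proteoglycan of the matrix, read 7.52, 6.44, 5.31 and 5.65 on the anti-*Vegf* arrays and 10.07, 9.58, 8.96 and 9.53 on the naïve arrays. Replicate 1 was the highest of the anti-*Vegf* group, the groups did not overlap, and the change was −3.31 (standard error 0.36, adjusted p = 8.34e-06). *Mfap4*, a glycoprotein that binds elastic microfibrils, read 9.42, 8.29, 7.28 and 8.40 on the anti-*Vegf* arrays and 11.46, 11.26, 10.90 and 11.15 on the naïve arrays, and fell by 2.84 (standard error 0.34, adjusted p = 2.03e-05). *Cxcl14*, a chemokine that resting epithelia make, read 8.60, 8.28, 7.52 and 7.99 on the anti-*Vegf* arrays and 11.37, 11.09, 10.49 and 10.52 on the naïve arrays, and fell by 2.77 (standard error 0.24, adjusted p = 9.57e-07). Every naïve array was above 10 for both genes and every anti-*Vegf* array below 10. Further large falls were those of the cartilage matrix gene *Chad* (−2.72), the transmembrane collagen *Col25a1* (−2.72), the basement membrane gene *Frem3* (−2.27), the carboxylesterase *Ces1d* (−2.49), the neuronal membrane glycoprotein *Gpm6a* (−2.93) and the ligand *Wnt16* (−2.23), with adjusted p between 9.77e-08 and 0.00156. The other falls of this size were those of *Ccdc141* (−2.56) and *Elmod1* (−2.40).

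Some smaller changes were larger relative to their error. *Tpm2*, a tropomyosin of contractile and stress fibres, read 10.71, 10.83, 10.95 and 11.08 on the anti-*Vegf* arrays and 8.08, 7.89, 8.09 and 7.90 on the naïve arrays. Its arrays spread little within each group, and the rise of 2.90 (standard error 0.11, adjusted p = 2.48e-10) had the highest moderated t of the genes outside the 12 largest rises. The dimmer *Tpm2* probe set changed by 0.28 (adjusted p = 0.0556). *Mt2A*, a metal-binding metallothionein, read 12.55, 12.56, 12.56 and 12.63 on the anti-*Vegf* arrays and 10.21, 9.79, 9.95 and 9.74 on the naïve arrays, a rise of 2.65 (standard error 0.12, adjusted p = 1.77e-09). *B3galnt1*, a glycosyltransferase, read 10.61, 10.55, 10.69 and 10.62 on the anti-*Vegf* arrays and 8.23, 8.14, 8.21 and 8.50 on the naïve arrays, a rise of 2.35 (standard error 0.11, adjusted p = 2.78e-09). The anti-*Vegf* arrays of these genes were nearly equal to one another. *Rab32*, a small GTPase of lysosome-related organelles, rose by 2.44, and *Msn*, the membrane-cytoskeleton linker moesin, by 3.40 (adjusted p = 3.45e-08). The falls with the highest t were smaller. *Nrn1l*, a gene related to neuritin, read 6.17, 6.18, 6.33 and 6.18 on the anti-*Vegf* arrays and 8.08, 7.96, 8.27 and 8.07 on the naïve arrays, and fell by 1.88 (standard error 0.14, adjusted p = 1.98e-07). *Vamp2*, a protein of vesicle fusion, read 7.66, 7.58, 7.46 and 7.69 on the anti-*Vegf* arrays and 8.57, 8.48, 8.45 and 8.56 on the naïve arrays, and fell by 0.92 (standard error 0.07, adjusted p = 2.29e-07). Both groups were tight for these genes and lay apart. The dimmer *Vamp2* probe set changed by −0.02 (adjusted p = 0.905), and *Vamp2* was not called on the mean of its probe sets. *Cpne7* fell by 2.06, *Susd4*, a regulator of complement, by 2.22, and the cytochrome P450 gene *Cyp4f4* by 1.54 (adjusted p = 4.81e-08).

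Of the VEGF ligands, receptors and neuropilins, 1 of 10 rose and 1 fell, beside 6.82% and 5.94% of all genes. The same shares of all genes apply to every list count below. *Vegfa* read 9.35, 9.71, 9.58 and 9.45 on the anti-*Vegf* arrays and 8.06, 7.95, 7.73 and 7.88 on the naïve arrays. The signal was higher in every cornea treated with the antibody than in any naïve cornea, by 1.62 (standard error 0.22, adjusted p = 5.92e-05, limma), a 3.07-fold rise of the mRNA. The other ligands *Vegfb* (−0.29), *Vegfc* (−0.14), *Vegfd* (−0.15) and *Pgf* (−0.17) were not DEGs, with adjusted p between 0.0746 and 0.558. Among the receptors, *Kdr* read 7.83, 8.03, 6.99 and 7.01 on the anti-*Vegf* arrays and 8.87, 8.67, 8.27 and 8.66 on the naïve arrays. Replicates 3 and 4 of the anti-*Vegf* group were the lowest, and the change was −1.15 (standard error 0.32, adjusted p = 0.0135). Without replicate 3 it was −0.99 (adjusted p = 0.0517), and no gene of this list was then called lower. The mean of both *Kdr* probe sets changed by −0.51 (adjusted p = 0.0263), below the fold limit, and the dimmer probe set alone by 0.13 (adjusted p = 0.340). *Flt1*, which binds *Vegfa* and *Pgf*, read 5.92, 6.81, 6.53 and 7.07 on the anti-*Vegf* arrays and 6.28, 6.43, 6.94 and 6.49 on the naïve arrays, with a log2 change of 0.05 (adjusted p = 0.934) and overlapping groups. The lymphatic receptor *Flt4* changed by −0.04 (adjusted p = 0.84). The co-receptors *Nrp1* and *Nrp2* changed by −0.27 and 0.46 (adjusted p = 0.453 and 0.0622), and without anti-*Vegf* replicate 1 a 2nd gene of this list was called higher.

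Among angiopoietins and the genes of tip and stalk cells, which lead and follow in a sprout, 2 of 17 rose and 3 fell, with a median change of −0.06. *Esm1*, a secreted proteoglycan of tip cells, read 7.76, 7.54, 7.94 and 7.77 on the anti-*Vegf* arrays and 3.84, 3.82, 3.88 and 4.16 on the naïve arrays. All anti-*Vegf* arrays lay well above all naïve arrays, by 3.83 (standard error 0.48, adjusted p = 2.89e-05). *Angptl4*, a lipase inhibitor that hypoxia induces, rose by 1.41 (standard error 0.17, adjusted p = 2.76e-05), whereas *Angpt2*, the ligand that loosens vessel walls, fell by 0.77 from a low naïve signal of 5.03 ± 0.26 (SD, n = 4), and *Calcrl*, the adrenomedullin receptor, by 0.86. The notch ligand *Jag1* had the highest signal of the list and a change of −0.12 (adjusted p = 0.459). Of inhibitors of angiogenesis, 3 of 14 rose and 4 fell. *Pf4*, platelet factor 4, rose by 2.31 and *Col18a1*, whose C-terminal piece is endostatin, by 1.43, while *Cnmd*, chondromodulin, fell by 1.49 and *Timp3* by 1.16 (adjusted p between 8.34e-06 and 0.00174). Markers of blood vessel endothelium showed 1 rise, that of *Esm1*, and 2 falls, those of *Kdr* and *Vwf* (−0.75), in 18 genes (16.7% called, beside 12.8% of all genes). Without anti-*Vegf* replicate 3, only 1 of these falls was called. The mean signal of this marker list was 6.05 to 6.29 on the anti-*Vegf* arrays and 5.98 to 6.02 on the naïve arrays. This mean includes *Esm1* with its rise of 3.83, and the median change of the 18 genes was 0.07. Only 1 of the 18 lay above the naïve arrays without overlap, and 2 lay below, so the mean does not show a rise of the list as a whole.

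Adhesion molecules by which leukocytes leave vessels rose in 5 of 10 genes. *Icam1*, which binds leukocyte integrins, read 9.66, 9.80, 10.06 and 10.38 on the anti-*Vegf* arrays and 7.05, 6.98, 7.24 and 6.76 on the naïve arrays. The rise of 2.97 (standard error 0.19, adjusted p = 6.42e-08) was seen on every array. *Vcam1*, the ligand of the integrin of monocytes and lymphocytes, rose by 2.95, the integrin subunit *Itgb2* of leukocytes by 1.58 and the hyaluronan receptor *Cd44* by 1.50 (adjusted p between 7.97e-08 and 5.02e-06).

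Chemokines of the CXC group, most of which attract neutrophils, rose in 7 of 13 genes and fell in 2, with a median change of 0.94 beside −0.01 for all genes. *Cxcl6*, a ligand of the neutrophil receptor *Cxcr2*, read 8.47, 8.57, 8.61 and 8.10 on the anti-*Vegf* arrays and 4.51, 4.31, 4.89 and 4.59 on the naïve arrays. It rose by 3.86 (standard error 0.42, adjusted p = 8.18e-06) without overlap. The study's *Cxcl5* was read as this gene, under the symbol *Cxcl6*. *Cxcl1*, another ligand of that receptor and the brightest gene of the list, read 12.14, 11.74, 11.52 and 11.49 on the anti-*Vegf* arrays and 8.84, 8.57, 8.75 and 8.19 on the naïve arrays, a rise of 3.13 (standard error 0.27, adjusted p = 9.11e-07). *Cxcl2* rose by 2.99 (adjusted p = 2.74e-04). The 2 falls were those of *Cxcl14* and of *Cxcl12*, named because it is the other fall, a stromal chemokine that keeps leukocytes and progenitors in place (−1.30, adjusted p = 9.70e-04). Chemokines of the CC group rose in 6 of 18 genes. Beside *Ccl2* these included *Ccl7*, a further monocyte attractant, which read 9.49, 9.10, 8.72 and 8.65 on the anti-*Vegf* arrays and 4.41, 4.43, 4.66 and 4.76 on the naïve arrays, a rise of 4.43 (standard error 0.32, adjusted p = 1.42e-07). *Ccl9* rose by 2.20 and *Ccl20*, which attracts dendritic cells and T helper cells, by 1.58 (adjusted p = 6.33e-05 and 0.0013). Of their receptors 5 of 16 rose and 1 fell. *Ccr1* of monocytes and neutrophils rose by 2.74, *Cxcr4* by 1.38, *Cxcr2* by 1.31 and *Ccr2* of inflammatory monocytes by 1.09, whereas the scavenging receptor *Ackr3* fell by 1.07 (adjusted p between 1.93e-05 and 0.00237).

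The interleukin 1 family, the alarm cytokines of injured epithelium and of myeloid cells, held 9 rises in 14 genes. *Il1b* read 9.16, 9.58, 8.71 and 8.46 on the anti-*Vegf* arrays and 5.56, 5.36, 4.76 and 5.61 on the naïve arrays, a rise of 3.66 (standard error 0.31, adjusted p = 7.33e-07). The decoy receptor *Il1r2*, which binds interleukin 1 without passing a signal on, read 9.06, 9.49, 9.0 and 9.22 on the anti-*Vegf* arrays and 5.45, 4.51, 5.66 and 5.83 on the naïve arrays, a rise of 3.83 (standard error 0.29, adjusted p = 2.47e-07). Both the cytokine and its decoy were thus separated between the groups. *Il1rl1*, the receptor of interleukin 33, rose by 2.52 and *Il33* by 1.29 (adjusted p = 1.61e-06 and 0.00147). Their dimmer probe sets changed by 0.07 (adjusted p = 0.659) and 1.04 (adjusted p = 0.0036). *Il18*, the brightest gene of the family, changed by −0.26 (adjusted p = 0.095). Of other cytokines and their receptors, 7 of 32 rose. *Il6*, a cytokine that acts through *Stat3*, read 7.78, 7.90, 6.60 and 4.68 on the anti-*Vegf* arrays and 3.59, 3.37, 3.13 and 3.95 on the naïve arrays. Replicate 4 of the anti-*Vegf* group was far below the other 3, and the rise was 3.23 (standard error 0.70, adjusted p = 0.00262) with it and 3.92 (adjusted p = 4.38e-04) without it. *Csf3*, the growth factor of neutrophils, rose by 2.00 and its receptor *Csf3r* by 2.89 (adjusted p = 0.00823 and 4.39e-06).

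Signal transducers downstream of these cytokines rose in part. Of the JAK, STAT and SOCS genes, 5 of 17 rose. *Socs3*, the feedback inhibitor of interleukin 6 signalling, read 8.89, 8.01, 8.42 and 8.49 on the anti-*Vegf* arrays and 6.40, 6.36, 6.46 and 6.48 on the naïve arrays, a rise of 2.03 (standard error 0.24, adjusted p = 2.20e-05). *Stat3* rose by 1.47 and *Jak2* by 1.01, while *Jak1*, the brightest of the list, changed by 0.10 (adjusted p = 0.471). Of the NF-κB and TNF genes, 9 of 26 rose. *Nfkb1*, a subunit of the factor, read 10.77, 10.50, 10.81 and 10.74 on the anti-*Vegf* arrays and 9.55, 9.72, 9.62 and 9.65 on the naïve arrays, a rise of 1.07 (standard error 0.08, adjusted p = 3.07e-07). The change was small and the arrays of each group were close together. *Bcl3*, a nuclear partner of NF-κB, rose by 1.94, *Tnfrsf12a*, the receptor of the cytokine TWEAK, by 1.78, and *Nfkb2* by 1.16 (adjusted p between 9.17e-06 and 6.93e-05). Toll-like receptors and their adaptors rose in 7 of 14 genes, among them *Tlr4*, the receptor of bacterial lipopolysaccharide, by 1.35, its partner *Ly96* by 1.09 and *Tlr2* by 1.05 (adjusted p between 6.32e-06 and 0.00224).

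NF-κB binds short DNA motifs, and promoters were searched for the spelling GGANTTTCC on both strands, over 250 bases before and 50 bases after the start of each gene. It was found in 1.26% of 27457 rat promoters of RefSeq (build GRCr8), in 3.96% of the 783 promoters of genes that rose, in 0.451% of the 665 promoters of genes that fell and in 1.2% of those of genes that were not DEGs. A match is a string of letters and not evidence of binding, and no promoter was listed for the other DEGs. Stretches are shown for 6 of the genes that rose, since they encode the chemokines, the cytokine, the adhesion molecule and the NF-κB parts described above. The whole window of *Cxcl1* lies at chr14:17479272-17479571 on the minus strand, and stretches of 60 bases are given for *Cxcl6* (chr14:17596471-17596530, minus strand), *Il6* (chr4:5894609-5894668, minus strand), *Icam1* (chr8:27829601-27829660, plus strand), *Nfkb2* (chr1:255108329-255108388, plus strand) and *Nfkbia*, the NF-κB inhibitor (chr6:78597070-78597129, minus strand). *Nfkbia*, which the rule for naming genes did not choose, rose by 0.80 (adjusted p = 0.00224) and holds 2 matches, of which the one nearer to the start is shown. Each sequence reads 5′ to 3′ along the gene, and capitals mark the match on either strand.

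Cxcl1: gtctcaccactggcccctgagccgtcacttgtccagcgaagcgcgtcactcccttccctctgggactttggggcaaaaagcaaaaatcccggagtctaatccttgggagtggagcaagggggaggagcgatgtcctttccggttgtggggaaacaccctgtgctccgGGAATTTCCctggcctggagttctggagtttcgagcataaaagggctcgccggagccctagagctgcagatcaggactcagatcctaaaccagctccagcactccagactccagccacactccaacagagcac
Cxcl6: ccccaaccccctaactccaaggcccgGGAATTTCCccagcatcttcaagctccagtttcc
Il6: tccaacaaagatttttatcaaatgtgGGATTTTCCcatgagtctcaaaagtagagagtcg
Icam1: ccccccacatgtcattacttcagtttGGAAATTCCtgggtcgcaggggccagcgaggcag
Nfkb2: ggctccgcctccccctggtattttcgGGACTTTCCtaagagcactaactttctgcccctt
Nfkbia: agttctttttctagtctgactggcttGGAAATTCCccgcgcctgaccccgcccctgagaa

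The match began 83 bases before the start in *Cxcl1*, 87 in *Cxcl6* and 67 in *Il6*. In *Icam1* it began 218 bases before the start, and in *Nfkb2* 19. The log2 rises of these 5 genes ran from 1.16 in *Nfkb2* to 3.86 in *Cxcl6*. This motif was chosen for display out of 13 patterns after the shares were seen. Of the others, the STAT motif TTCNNNGAA was in 8.43% of promoters of genes that rose, 5.71% of those that fell, 6.96% of those of genes that were not DEGs and 8.68% of all. The C/EBP motif TTGCNNAA was in 10.9%, 7.22%, 9.12% and 10.5% in that order.

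Genes that interferons induce rose in 10 of 24, with a median change of 0.61. *Gbp2*, a guanylate-binding protein of the defence against pathogens, read 12.74, 12.93, 13 and 12.96 on the anti-*Vegf* arrays and 9.09, 9.36, 8.20 and 8.65 on the naïve arrays. All treated corneas lay above all naïve corneas, with a rise of 4.09 (standard error 0.35, adjusted p = 8.22e-07). *Isg15*, a ubiquitin-like modifier, read 10.84, 9.81, 9.30 and 9.33 on the anti-*Vegf* arrays and 8.10, 7.49, 7.68 and 7.92 on the naïve arrays, a rise of 2.02 (standard error 0.49, adjusted p = 0.00585). Replicate 1 of the anti-*Vegf* group stood above the other 3 for *Isg15*, and the groups did not overlap. *Igtp*, an interferon-induced GTPase, rose by 1.77, *Irf9*, the DNA-binding part of the interferon-activated complex, by 1.69, and *Ifitm3*, which blocks the entry of viruses, by 1.48 (adjusted p between 7.50e-07 and 2.84e-05). The pattern TTTCNNTTT, part of the interferon response element, was in 13.7% of the promoters of genes that rose, in 6.32% of those that fell, in 7.66% of those of genes that were not DEGs and in 11.5% of all.

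Complement genes rose in 12 of 27 and fell in 1 of them. *C3*, the central component that all pathways cleave, read 7.61, 7.53, 7.49 and 7.43 on the anti-*Vegf* arrays and 4.93, 5.10, 5.24 and 4.86 on the naïve arrays. Both groups were tight, and the rise was 2.49 (standard error 0.24, adjusted p = 3.43e-06). Of the classical pathway, *C1s*, *C1r*, *C1qa* and *C1qc* rose by 2.14, 1.65, 1.83 and 1.56 (adjusted p between 1.41e-07 and 3.47e-04). Inhibitors rose as well. *Cfi*, the protease that inactivates C3b, read 7.43, 8.39, 8.45 and 7.99 on the anti-*Vegf* arrays and 5.02, 5.06, 5.36 and 4.45 on the naïve arrays, a rise of 3.09 (standard error 0.27, adjusted p = 1.06e-06), and *Serping1*, the inhibitor of the C1 proteases, read 11.05, 11.09, 10.52 and 10.90 on the anti-*Vegf* arrays and 8.62, 8.20, 8.82 and 8.63 on the naïve arrays, a rise of 2.32 (standard error 0.18, adjusted p = 2.30e-07). Neither overlapped between the groups. *Clu*, clusterin, which blocks the terminal complex, rose by 3.29 (adjusted p = 2.12e-08), while the surface regulator *Cd59b*, the brightest of the list, changed by −0.02 (adjusted p = 0.929). The dimmer *Clu* probe set changed by 0.15 (adjusted p = 0.206). The fall was that of *Cd55*, which removes convertases from cell surfaces and was named because it is the fall of the list. It read 7.84, 8.02, 9.54 and 8.33 on the anti-*Vegf* arrays and 10.71, 10.89, 9.21 and 11.07 on the naïve arrays, a change of −2.04 (standard error 0.50, adjusted p = 0.00643), and anti-*Vegf* replicate 3 lay above naïve replicate 3.

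Antimicrobial proteins were the list with the highest share of DEGs, with 12 rises and 1 fall in 16 genes (81.2%, beside 12.8% of all genes) and a median change of 2.08. The list was chosen with earlier results of these data known. It holds *S100a9*, *S100a8*, *Defb4*, *Chi3l1* and *Stfa3*, which are among the 12 largest rises, so its rank is not a test. *Slpi*, an inhibitor of neutrophil elastase, read 13.05, 13.47, 13.36 and 13.45 on the anti-*Vegf* arrays and 10.45, 11.52, 12.14 and 11.90 on the naïve arrays, a rise of 1.83 (standard error 0.26, adjusted p = 8.98e-05). Naïve replicate 1 was the lowest of all arrays for it. *Reg3g*, a lectin that kills Gram-positive bacteria, read 8.03, 8.61, 8.34 and 9.19 on the anti-*Vegf* arrays and 4.35, 4.50, 4.16 and 4.64 on the naïve arrays, a rise of 4.13 (standard error 0.41, adjusted p = 3.51e-06). The fall was that of *Pla2g2a*, a secreted phospholipase with antibacterial action, which read 10.88, 10.09, 8.95 and 8.40 on the anti-*Vegf* arrays and 10.93, 11.15, 11.83 and 12.15 on the naïve arrays. Replicate 1 of the anti-*Vegf* group came close to naïve replicate 1, and the change was −1.93 (standard error 0.48, adjusted p = 0.00643). Acute phase and iron genes rose in 7 of 24, among them *Hmox1*, which breaks down haem, by 1.58, *Lcn2*, which binds bacterial iron carriers, by 1.47 and *Mt1* by 1.47 (adjusted p between 3.76e-06 and 4.46e-05), whereas *A2m*, the brightest of the list, changed by 0.10 (adjusted p = 0.665).

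Leukocyte markers also rose. Some genes stand in an immune list and a marker list at once, so their rises count in both. Examples are *S100a9* and *Lcn2* (antimicrobial and neutrophil) and *C1qa* (complement and macrophage). Of 18 pan-leukocyte markers 11 rose, and the mean signal of the list was 7.61 to 7.74 on the anti-*Vegf* arrays and 6.32 to 6.42 on the naïve arrays. *Ptprc*, the common leukocyte antigen, read 7.70, 8.40, 7.97 and 7.68 on the anti-*Vegf* arrays and 4.18, 4.14, 4.25 and 4.04 on the naïve arrays, a rise of 3.78 (standard error 0.30, adjusted p = 3.39e-07). *Cd53*, a tetraspanin of leukocytes, rose by 3.94, and the signal adaptors *Fcer1g* and *Tyrobp* of myeloid cells by 3.11 and 1.90. Monocyte and macrophage markers rose in 16 of 25 genes, with a list mean of 7.62 to 7.86 against 6.31 to 6.66. *Fcgr2b*, an inhibitory Fc receptor, rose by 3.21, *Aif1* by 3.15 and *Clec7a*, a receptor of fungal glucans, by 2.84 (adjusted p between 8.79e-08 and 5.95e-06), while *Arg1* fell by 0.82 (adjusted p = 0.0154). Of 2 falls in this list, 1 was called without anti-*Vegf* replicate 3, anti-*Vegf* replicate 4 or naïve replicate 4. Neutrophil markers rose in 8 of 15 (list mean 8.01 to 8.14 against 6.18 to 6.55), and genes of MHC class II and dendritic cells in 7 of 15, with 1 fall. *RT1-Da*, a class II alpha chain, read 10.37, 10.11, 10.53 and 10.21 on the anti-*Vegf* arrays and 7.81, 6.60, 7.61 and 7.20 on the naïve arrays, a rise of 3.00 (standard error 0.24, adjusted p = 4.91e-07), and *Cd74*, the invariant chain, rose by 2.64. The *RT1* genes are close relatives and may share signal. The part of these cells in the rises of chemokine, interferon and complement genes was not tested.

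Lymphoid markers moved little. Of 21 markers of T and NK cells 1 rose, *Cd8a* (1.06, adjusted p = 0.00514), and 2 without naïve replicate 2 or 4, beside 6.82% of all genes. *Cd8a* was not called on the mean of its probe sets. Of all 14217 genes, 5864 had a raw p below 0.05 in limma in this comparison. The raw p counts of lists, here and below, stand beside that share. Of 7 B cell markers, limma called 0, with 0 at a raw p below 0.05. An ordinary F test of this contrast alone, equal to a t test without moderation, called 0, with 1 at a raw p below 0.05. Of 11 mast cell markers, limma called 0, with 1 at a raw p below 0.05, and the ordinary F test likewise 0 and 1. The smallest adjusted p of the mast cell list was 0.0125 (limma), at a change below the fold limit. The gene list means were 5.06 to 5.27 against 4.93 to 5.01 for T and NK cells, 5.34 to 5.64 against 5.34 to 5.54 for B cells and 5.09 to 5.32 against 5.11 to 5.29 for mast cells.

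**Figure D3:**
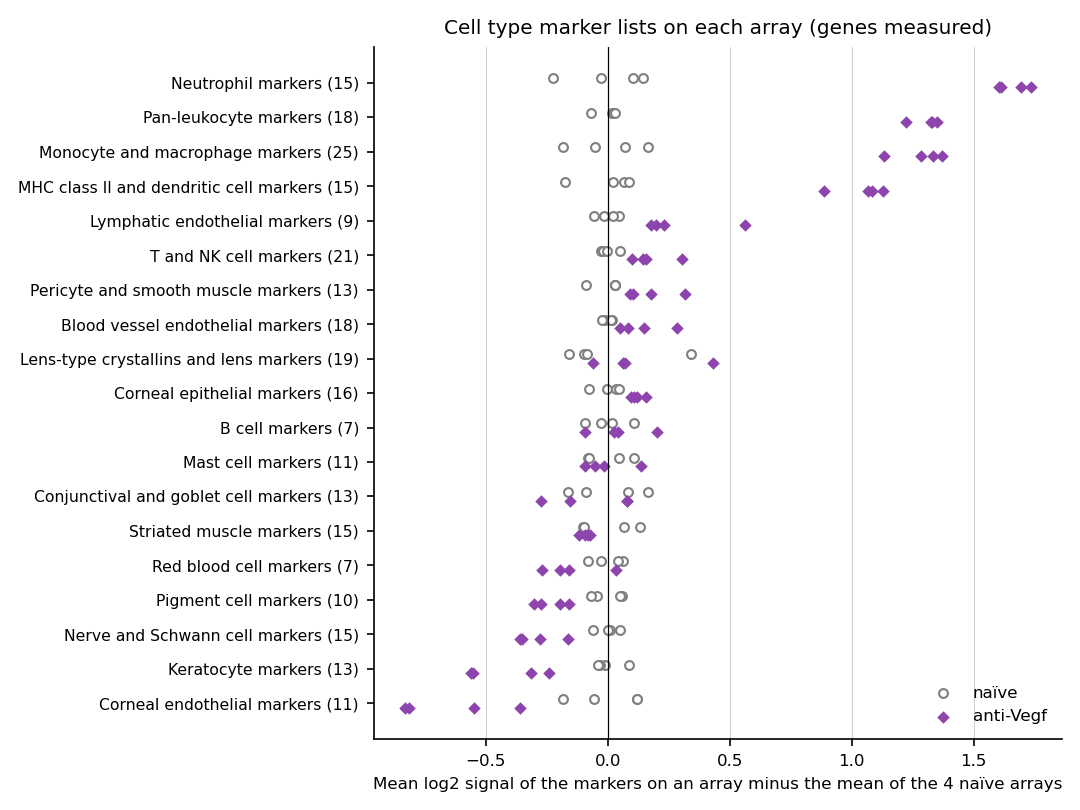
Mean log2 signal of each of 19 cell type marker lists on each array, 4 naïve and 4 anti-*Vegf*, minus the mean of the naïve arrays. Points are arrays, and the leukocyte, neutrophil and macrophage lists lie higher on every anti-*Vegf* array than on any naïve array. The same holds for MHC class II and dendritic cells, T and NK cells, blood vessel and lymphatic endothelium, mural cells and corneal epithelium. The mean of the blood vessel list includes *Esm1* (3.83).

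Metalloproteinases and their inhibitors rose in 9 of 24 genes and fell in 3. Beside *Mmp3*, *Mmp13* and *Timp1*, the gelatinase *Mmp9* of neutrophils read 6.92, 6.28, 5.95 and 7.04 on the anti-*Vegf* arrays and 4.12, 3.83, 4.14 and 4.36 on the naïve arrays, a rise of 2.43 (standard error 0.40, adjusted p = 3.02e-04). *Mmp14*, the membrane-bound protease with the highest signal of the list, changed by 0.42 (adjusted p = 0.0435), below the fold limit. Plasminogen activation and coagulation genes rose in 8 of 19. Beside *Serpinb2* these were led by *Tfpi2*, an inhibitor of matrix-degrading serine proteases, with 3.03, *Serpine2*, an inhibitor of thrombin and of plasminogen activators, with 2.94, and *Procr*, the protein C receptor, with 1.95 (adjusted p between 3.41e-06 and 1.05e-04). There were 2 falls in this list, and 1 without anti-*Vegf* replicate 3 or 4.

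The AP-1 motif TGANTCA was searched in the same windows. It was in 9.83% of the promoters of genes that rose, 5.11% of those that fell, 5.11% of those of genes that were not DEGs and 7.33% of all promoters. It is shown for 3 metalloproteinases and *Serpinb2*, which rose and hold it. The window of *Mmp3* lies at chr8:12925031-12925330, and those of *Mmp10* at chr8:12974619-12974678, of *Mmp13* at chr8:12782736-12782795 and of *Serpinb2* at chr13:24055805-24055864, all on the plus strand of GRCr8. *Mmp10*, a relative of *Mmp3* that was named after its value was seen, rose by 0.72 (adjusted p = 0.0359).

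Mmp3: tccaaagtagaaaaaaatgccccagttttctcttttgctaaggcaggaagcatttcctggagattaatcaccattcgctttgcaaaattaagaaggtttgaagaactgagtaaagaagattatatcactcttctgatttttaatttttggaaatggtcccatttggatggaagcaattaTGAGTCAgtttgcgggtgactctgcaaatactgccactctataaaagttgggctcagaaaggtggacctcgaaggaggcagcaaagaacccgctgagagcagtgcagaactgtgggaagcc
Mmp10: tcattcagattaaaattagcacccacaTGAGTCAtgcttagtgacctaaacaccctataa
Mmp13: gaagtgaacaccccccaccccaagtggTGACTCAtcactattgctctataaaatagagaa
Serpinb2: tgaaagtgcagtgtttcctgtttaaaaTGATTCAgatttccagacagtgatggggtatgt

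The match began 71 bases before the start in *Mmp3*, 61 in *Mmp10* and 66 in *Mmp13*, and 189 in *Serpinb2*. The 3 metalloproteinase promoters lie on chromosome 8 in the order *Mmp13*, *Mmp3* and *Mmp10*.

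Collagens fell. Of 29 collagen chains, 17 fell and 1 rose, with a median change of −0.88 beside −0.01 for all genes. *Col1a2*, a chain of the main fibril collagen of the stroma and the brightest of the list, read 13.02, 12.97, 12.43 and 12.60 on the anti-*Vegf* arrays and 13.91, 13.77, 13.31 and 13.54 on the naïve arrays. It fell by 0.88 (standard error 0.14, adjusted p = 2.55e-04), with every anti-*Vegf* array below every naïve array. *Col5a1*, a chain of the collagen that limits fibril width, read 9.49, 9.13, 8.22 and 8.78 on the anti-*Vegf* arrays and 10.81, 10.40, 10.13 and 10.46 on the naïve arrays, a change of −1.55 (standard error 0.21, adjusted p = 7.55e-05). *Col6a1*, a chain of the beaded filaments between fibrils, read 10.49, 9.84, 9.29 and 9.68 on the anti-*Vegf* arrays and 11.65, 11.25, 11.19 and 11.40 on the naïve arrays, a change of −1.55 (standard error 0.19, adjusted p = 2.38e-05). In all 3, anti-*Vegf* replicate 3 was the lowest of the 8 arrays. The rise was that of *Col18a1*, a collagen of basement membranes, which read 8.25, 8.16, 8.92 and 8.69 on the anti-*Vegf* arrays and 7.05, 6.99, 7.09 and 7.15 on the naïve arrays, by 1.43 (standard error 0.15, adjusted p = 8.34e-06).

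Other stromal matrix genes moved in both directions, with 6 rises and 8 falls in 27. *Tgfbi*, a matrix protein that corneal epithelium secretes, read 11.22, 11.44, 11.35 and 11.51 on the anti-*Vegf* arrays and 9.63, 9.51, 9.64 and 9.48 on the naïve arrays, a rise of 1.81 (standard error 0.15, adjusted p = 7.64e-07). The proteoglycan *Ogn* fell by 1.55 (adjusted p = 0.00145), whereas *Dcn*, decorin, the brightest of the list, changed by 0.08 (adjusted p = 0.71). Genes of the provisional matrix of wounds rose in 6 of 21 and fell in 3. *Vcan*, versican, read 7.49, 8.49, 8.51 and 7.77 on the anti-*Vegf* arrays and 5.08, 4.62, 5.40 and 4.82 on the naïve arrays, a rise of 3.08 (standard error 0.41, adjusted p = 4.92e-05). *Tnc*, tenascin C, rose by 2.99 and *Spp1*, osteopontin, by 2.53 (adjusted p = 2.41e-04 and 2.12e-05). *Ccn2*, connective tissue growth factor, moved the other way. It read 9.08, 9.06, 9.16 and 9.41 on the anti-*Vegf* arrays and 10.62, 10.22, 10.87 and 11.12 on the naïve arrays, a change of −1.53 (standard error 0.28, adjusted p = 7.07e-04) without overlap.

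Markers of stromal and endothelial cells changed as well, and *Col8a1*, *Col8a2* and *Ogn* count in the matrix lists too. Of 13 keratocyte markers 4 fell, with *Ogn*, *Aldh1a1* and *Col8a2* among them, and 1 rose, and the list mean was 9.46 to 9.78 on the anti-*Vegf* arrays and 9.98 to 10.11 on the naïve arrays. The rise was that of *Pdgfra*, a receptor of platelet-derived growth factor, by 1.37 (adjusted p = 0.00521). It read 10.29, 10.58, 10.20 and 10.20 on the anti-*Vegf* arrays and 9.89, 9.36, 8.26 and 8.29 on the naïve arrays. Naïve replicates 1 and 2 were thus nearer to the anti-*Vegf* arrays. The 5′ minus 3′ control differences divided the naïve arrays into the same pairs, and their part in this rise was not tested. Of 11 corneal endothelial markers, 6 fell and 1 rose, and none had risen without naïve replicate 4. *Slc4a11*, a transporter of the endothelial pump, read 9.85, 10.24, 9.85 and 9.90 on the anti-*Vegf* arrays and 11.33, 11.36, 11.08 and 10.71 on the naïve arrays, a change of −1.16 (standard error 0.18, adjusted p = 2.38e-04). *Col8a1* and *Col8a2*, chains of the collagen of Descemet's membrane, fell by 1.43 and 1.42, and *Cdh2*, the cadherin of endothelial junctions, by 1.56 (adjusted p between 1.83e-04 and 0.00278). The list mean was 8.55 to 9.02 against 9.20 to 9.50. What part these cells have in the falls of collagens was not tested.

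**Figure D4:**
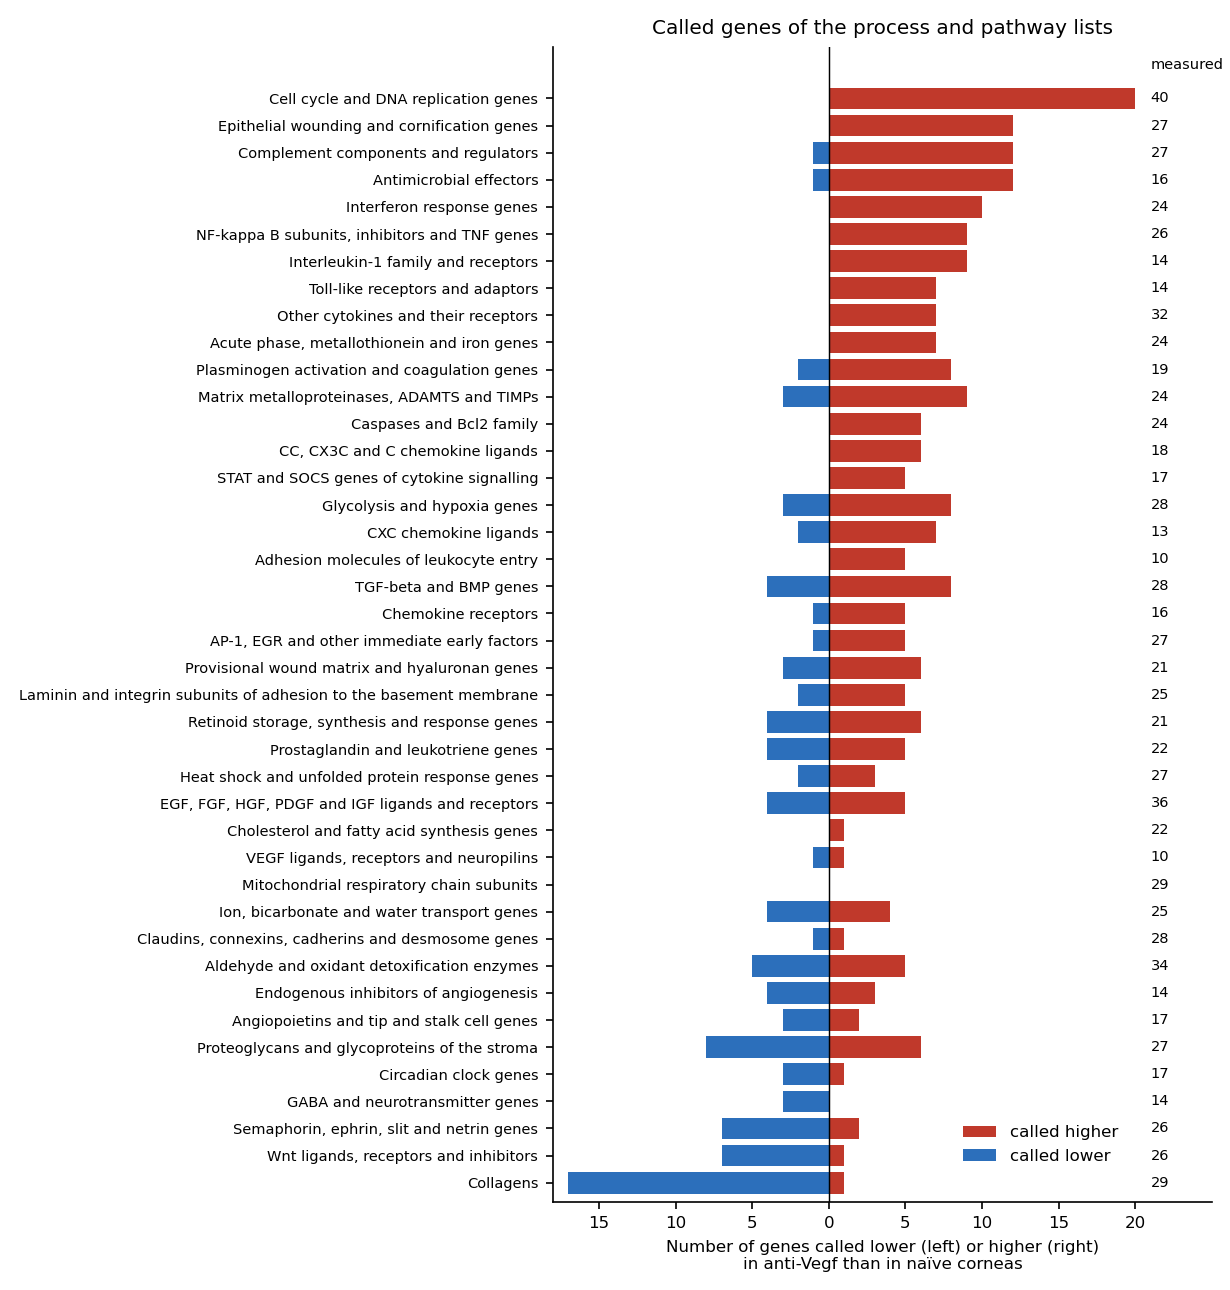
Number of DEGs that were lower (left) and higher (right) in anti-*Vegf* treated than in naïve corneas in each of 41 process lists. Antimicrobial proteins have the largest share of rises (12 of 16) and collagens the largest share of falls (17 of 29), beside 6.82% and 5.94% over all genes. The lists were chosen with earlier results of these data known.

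Growth and patterning factors were divided. TGF-beta and BMP genes rose in 8 of 28 and fell in 4, or in 2 without anti-*Vegf* replicate 3. The targets *Id1* and *Id3*, which block differentiation factors, rose by 1.18 and 1.41, the ligand *Bmp4* by 1.29 and the activin chain *Inhba* by 1.27 (adjusted p between 1.77e-05 and 0.00205). Wnt genes fell in 7 of 26 and rose in 1, a rise not called without anti-*Vegf* replicate 3 or 4. *Dkk3*, a secreted relative of Wnt inhibitors, read 9.83, 9.62, 8.92 and 8.91 on the anti-*Vegf* arrays and 11.33, 11.27, 11.28 and 10.94 on the naïve arrays, a change of −1.89 (standard error 0.23, adjusted p = 2.09e-05), and the ligand *Wnt2* fell by 1.18, the receptor *Fzd4* by 1.00 and the ligand *Wnt6* by 0.95. The dimmer *Wnt6* probe set changed by 0.06 (adjusted p = 0.674). Of other growth factors and receptors, 5 of 36 rose and 4 fell, beside 6.82% and 5.94% of all genes. *Areg*, an epithelial ligand of the EGF receptor, rose by 1.92 (standard error 0.20, adjusted p = 5.86e-06), whereas *Egf* itself fell by 1.01 (standard error 0.14, adjusted p = 6.11e-05). Guidance genes of axons and vessels fell in 7 of 26, led by the semaphorins *Sema3c* (−1.50), *Sema3d* (−1.28) and *Sema3b* (−1.03) with adjusted p between 3.92e-05 and 9.79e-04. They rose in 2, and in 1 without anti-*Vegf* replicate 1, 3 or 4 or naïve replicate 1 or 2.

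Of early transcription factors 5 of 27 rose, beside 6.82% of all genes. *Cebpd*, a factor of the acute phase, rose by 3.13 (standard error 0.22, adjusted p = 1.08e-07), *Fosl1*, a partner in AP-1, by 1.38, and *Myc*, which drives growth, by 1.36 (adjusted p = 1.12e-04 and 2.29e-05). The fall of 1 gene was not called without anti-*Vegf* replicate 3 or 4 or naïve replicate 1 or 2. *Klf4*, the brightest of the list, changed by −0.16 (adjusted p = 0.139).

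Genes of the cell cycle and DNA replication rose in 20 of 40 genes (50%), with a median change of 0.57. *Ccnd2*, a cyclin of the first growth phase, read 8.08, 8.31, 8.10 and 7.73 on the anti-*Vegf* arrays and 6.77, 6.45, 6.65 and 6.37 on the naïve arrays, a rise of 1.49 (standard error 0.15, adjusted p = 3.16e-06). *Mcm6*, a subunit of the replicative helicase, read 9.93, 9.62, 10.12 and 10.15 on the anti-*Vegf* arrays and 8.83, 8.55, 8.75 and 9.05 on the naïve arrays, a rise of 1.16 (standard error 0.16, adjusted p = 8.48e-05). Neither overlapped between the groups. *Tyms*, which makes thymidylate, rose by 1.31 and *Ccna2*, the cyclin of DNA synthesis, by 1.03 (adjusted p = 7.50e-06 and 1.06e-04). *Ccnd1*, the brightest of the list, went the other way, with −0.57 (adjusted p = 0.00428), which missed the fold limit, though it was called lower without anti-*Vegf* replicate 1 or 2 or naïve replicate 4. The E2F spelling TTTCGCGC was in the promoters of 7 genes that rose (0.894%), and all 7 were genes of replication and the cell cycle, among them *Mcm2*, *Mcm3*, *Mcm5*, *Mcm6* and *Mcm7*. It was in 0.602% of promoters of genes that fell, 0.536% of those of genes that were not DEGs and 0.342% of all. Stretches are shown for 3 helicase subunits, *Mcm2* (chr4:122918075-122918134, minus strand), *Mcm3* (chr9:30733700-30733759, minus strand) and *Mcm5* (chr19:13488574-13488633, plus strand), named for this motif after their values were seen. They rose by 0.75, 0.74 and 0.94 (adjusted p = 4.61e-04, 2.32e-04 and 4.70e-05).

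Mcm2: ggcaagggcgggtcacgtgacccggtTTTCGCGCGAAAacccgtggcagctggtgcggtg
Mcm3: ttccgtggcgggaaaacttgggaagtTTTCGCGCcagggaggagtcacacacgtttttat
Mcm5: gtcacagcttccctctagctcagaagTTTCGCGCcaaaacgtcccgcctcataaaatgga

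*Mcm2* holds 2 matches that overlap, and the match of *Mcm3* lies after the start. The other E2F spellings TTTGGCGC and TTTCCCGC were in 1.66% and 2.43% of the promoters of genes that rose, in 0.451% and 1.5% of those of genes that fell, in 0.761% and 1.8% of those of genes that were not DEGs and in 0.521% and 1.03% of all.

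Glycolysis and hypoxia genes rose in 8 of 28 and fell in 3 (39.3% called, beside 12.8% of all genes). *Ndrg1*, a gene that hypoxia and differentiation induce, read 12.30, 12.39, 12.42 and 12.61 on the anti-*Vegf* arrays and 10.97, 10.53, 10.43 and 10.23 on the naïve arrays, a rise of 1.89 (standard error 0.25, adjusted p = 5.82e-05). *Slc16a1*, a lactate transporter, rose by 1.53, whereas *Ldhb*, the lactate dehydrogenase of oxidative tissue, fell by 1.54 (adjusted p = 9.35e-06 and 5.89e-04). The dimmer *Slc16a1* probe set changed by 0.29 (adjusted p = 0.164). Of 29 subunits of the mitochondrial respiratory chain, limma called 0, with 11 at a raw p below 0.05, as did the ordinary F test. Over all genes, 5864 of 14217 had such a raw p in limma. The smallest adjusted p of the list was 0.00392 (limma), and its largest change, 0.42 in size, was below the fold limit. Of 22 genes of cholesterol and fatty acid synthesis 1 rose, *Fads1*, a desaturase, by 1.19 (standard error 0.13, adjusted p = 7.98e-06). Without any 1 of anti-*Vegf* replicates 1 and 2 and the 4 naïve replicates, 2 to 4 genes of that list rose. The pattern GCGTG of hypoxia response elements was in 42.3% of the promoters of genes that rose, 46.2% of those that fell and 46.1% of those of genes that were not DEGs.

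Enzymes of detoxification rose in 5 of 34 genes and fell in 5. *Adh7*, an alcohol dehydrogenase that also oxidizes retinol, read 10.70, 10.09, 8.58 and 9.53 on the anti-*Vegf* arrays and 11.75, 11.85, 11.76 and 11.73 on the naïve arrays. The naïve arrays were almost equal, the anti-*Vegf* arrays spread widely below them, and the change was −2.05 (standard error 0.37, adjusted p = 7.58e-04). *Sod2*, the mitochondrial superoxide dismutase, rose by 1.88 (standard error 0.20, adjusted p = 6.41e-06). Retinoid genes, which handle the vitamin A that the corneal surface needs, rose in 6 of 21 and fell in 4. *Lrat*, which esterifies retinol for storage, read 8.13, 9.94, 8.87 and 8.94 on the anti-*Vegf* arrays and 4.32, 4.72, 4.70 and 4.11 on the naïve arrays, a rise of 4.51 (standard error 0.37, adjusted p = 4.67e-07). The groups were far apart, with replicate 1 of the anti-*Vegf* group the lowest and replicate 2 the highest of the treated corneas. *Rarres2*, the attractant chemerin, rose by 4.16, *Crabp2*, a carrier of retinoic acid, by 1.69, and *Cyp26b1*, which degrades it, by 1.60, while *Aldh1a1*, which makes it, fell by 1.45 (adjusted p between 1.09e-07 and 8.29e-05). Prostaglandin and leukotriene genes rose in 5 of 22 and fell in 4, with rises of the cyclooxygenase *Ptgs1* (2.06), the prostaglandin E synthase *Ptges* (1.78) and the lipoxygenase partner *Alox5ap* (1.63) at adjusted p between 2.76e-06 and 3.24e-05.

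Apoptosis genes rose in 6 of 24 (25%, beside 6.82% of all genes), led by *Bcl2a1*, a survival gene of myeloid cells, with 1.94 (standard error 0.19, adjusted p = 3.17e-06), and the caspases *Casp12* and *Casp4* of inflammation with 1.54 and 1.23. Heat shock and unfolded protein genes rose in 3 of 27 and fell in 2 (18.5% called, beside 12.8%), or in 1 without anti-*Vegf* replicate 3. *Hspa1a*, the inducible chaperone, fell by 1.02 (standard error 0.15, adjusted p = 1.64e-04), while *Hsp90ab1* rose by 0.79. *Hsp90ab1* was not called on the mean of its probe sets. Of 17 clock genes 1 rose and 3 fell (23.5% called, beside 12.8%), and the naïve arrays were themselves divided. *Bhlhe41*, a repressor of the clock, read 9.17, 8.97, 8.57 and 8.56 on the anti-*Vegf* arrays and 9.72, 9.29, 11.20 and 11.22 on the naïve arrays. Naïve replicates 3 and 4 lay well above naïve replicates 1 and 2, which were close to the anti-*Vegf* arrays, and the change was −1.54 (standard error 0.35, adjusted p = 0.00414). The naïve arrays were divided the same way in the 5′ minus 3′ differences of beta-actin and *Gapdh* given above, whose part in this change was not tested. Without naïve replicate 4 only 1 clock gene fell, and the rise was lost without any 1 of 6 of the 8 arrays.

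Ion, bicarbonate and water transporters rose in 4 of 25 (2 without naïve replicate 1) and fell in 4 (2 without anti-*Vegf* replicate 3). *Slc4a7*, a bicarbonate transporter, read 8.99, 9.41, 9.71 and 8.93 on the anti-*Vegf* arrays and 7.75, 7.27, 6.68 and 6.74 on the naïve arrays, a rise of 2.15 (standard error 0.23, adjusted p = 7.98e-06). *Aqp3*, a water channel of epithelium and the brightest of the list, changed by −0.34 (adjusted p = 0.00715), below the fold limit. Of the GABA and glutamate genes 3 of 14 fell, against 5.94% of all genes. Apart from *Gad1* these were the receptor subunit *Gabbr1* (−0.97) and the glutamine synthetase *Glul* (−0.81), with adjusted p of 8.45e-05 and 0.00144. Neither *Gabbr1* nor *Glul* was called on the mean of its probe sets. Nerve and Schwann cell markers fell in 3 of 15, among them *Gap43* of growing axons by 1.12 (standard error 0.12, adjusted p = 1.04e-05) and *S100b* of Schwann cells by 1.37, and the list mean was 7.05 to 7.24 on the anti-*Vegf* arrays and 7.34 to 7.45 on the naïve arrays.

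Of 16 corneal epithelial markers 3 rose and 0 fell (18.8% called, beside 12.8% of all genes). Their median change was −0.10, whereas the list mean was higher, at 12.09 to 12.15 on the anti-*Vegf* arrays and 11.91 to 12.04 on the naïve arrays. *Krt14*, a keratin of basal cells, read 14.34, 14.39, 14.55 and 14.50 on the anti-*Vegf* arrays and 12.75, 12.36, 12.97 and 12.94 on the naïve arrays, a rise of 1.69 (standard error 0.12, adjusted p = 1.55e-07). The chloride channel regulator *Clca2* rose by 1.40 and the epithelial factor *Ehf* by 0.74 (adjusted p = 3.96e-05 and 1.72e-04). *Krt12* changed by −0.07 and *Aldh3a1*, the crystallin-like dehydrogenase of the cornea, by −0.37 (adjusted p = 0.414 and 6.39e-04), both below the fold limit. Genes of epithelial wounding and cornification rose in 12 of 27. *Dmkn*, a secreted protein of differentiating skin, read 10.90, 11.05, 11.22 and 11.06 on the anti-*Vegf* arrays and 7.78, 7.30, 8.24 and 7.48 on the naïve arrays, a rise of 3.35 (standard error 0.22, adjusted p = 7.76e-08). *Cnfn*, a protein of the cornified envelope, rose by 3.16, *Serpinb3*, a protease inhibitor of stressed squamous epithelium, by 2.62 and *Sprr1a*, a precursor of the envelope, by 1.08 from a naïve signal of 13.10 ± 0.07 (SD, n = 4). Junction genes were nearly level, with 1 rise (*Cldn1*, a claudin of tight junctions, 1.18) and 1 fall (*Cdh2*) in 28, or 2 falls without anti-*Vegf* replicate 4 or naïve replicate 1 or 2. Laminin and integrin genes of adhesion rose in 5 of 25, or in 3 without anti-*Vegf* replicate 3 or 4, and fell in 2, or in 1 without anti-*Vegf* replicate 1 or 3 or naïve replicate 2. *Lamb3*, a chain of the laminin that anchors epithelium, rose by 1.05 and *Lama4*, a laminin chain of vessels and stroma, by 1.25 (adjusted p = 2.27e-04 and 0.00121). *Lama4* was not called on the mean of its probe sets.

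The remaining marker lists cover lymphatic, mural, conjunctival and other cell types. Of 9 lymphatic endothelial markers 2 rose, beside 6.82% of all genes. *Pdpn*, which fibroblasts and epithelium also express, read 10.88, 10.82, 10.60 and 10.48 on the anti-*Vegf* arrays and 8.92, 8.58, 8.59 and 8.79 on the naïve arrays, a rise of 1.98 (standard error 0.22, adjusted p = 9.19e-06), and *Ackr4* rose by 0.80 (adjusted p = 0.0125). Of 13 pericyte and smooth muscle markers, limma called 0, with 3 at a raw p below 0.05, and the ordinary F test called 0, with 2, while without anti-*Vegf* replicate 2 limma called 1. Of 13 conjunctival and goblet cell markers, both tests called 0, with 4 at a raw p below 0.05. Over all genes, 5864 of 14217 had such a raw p in limma. The smallest adjusted p (limma) was 0.0473 in the pericyte and smooth muscle list and 0.000175 in the conjunctival list. The changes of those genes were below the fold limit. The conjunctival list mean was 8.21 to 8.57 against 8.32 to 8.65. Striated muscle, pigment cell, red blood cell and lens markers gave 1, 1, 1 and 1 falls in 15, 10, 7 and 19 genes, and 1 rise in the lens list. Over all genes 5.94% fell and 6.82% rose, so counts of 1 are not read as tissue content. The muscle count was 2 without anti-*Vegf* or naïve replicate 1, the pigment count 2 without naïve replicate 1 or 2, and the red cell count 0 without anti-*Vegf* replicate 3.

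The other sutured groups place these changes. Relative to the same naïve arrays, 1612 genes (11.3%) were DEGs in IgG treated and 1797 (12.6%) in dexamethasone treated corneas. In the direct comparison of anti-*Vegf* with IgG, limma called 0 of 14217 genes (0%) at an adjusted p under 0.05, with 942 (6.63%) at a raw p below 0.05, and an ordinary F test called 0, with 1037. The smallest adjusted p was 0.261, which does not show that the groups were alike. For *Vegfa* the changes from naïve were 1.62 with anti-*Vegf*, 1.68 with IgG and 1.91 with dexamethasone, and the direct difference from IgG was −0.06 (adjusted p = 0.994). For *Kdr* they were −1.15, −0.75 and −0.34. *Defb4* had changes of 5.48, 3.84 and 2.58, and *Mamdc2* of −3.31, −2.24 and −1.16, in that order. The differences of anti-*Vegf* from IgG in these genes did not pass the test (adjusted p = 0.958, 0.462 and 0.564).

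**Figure D5:**
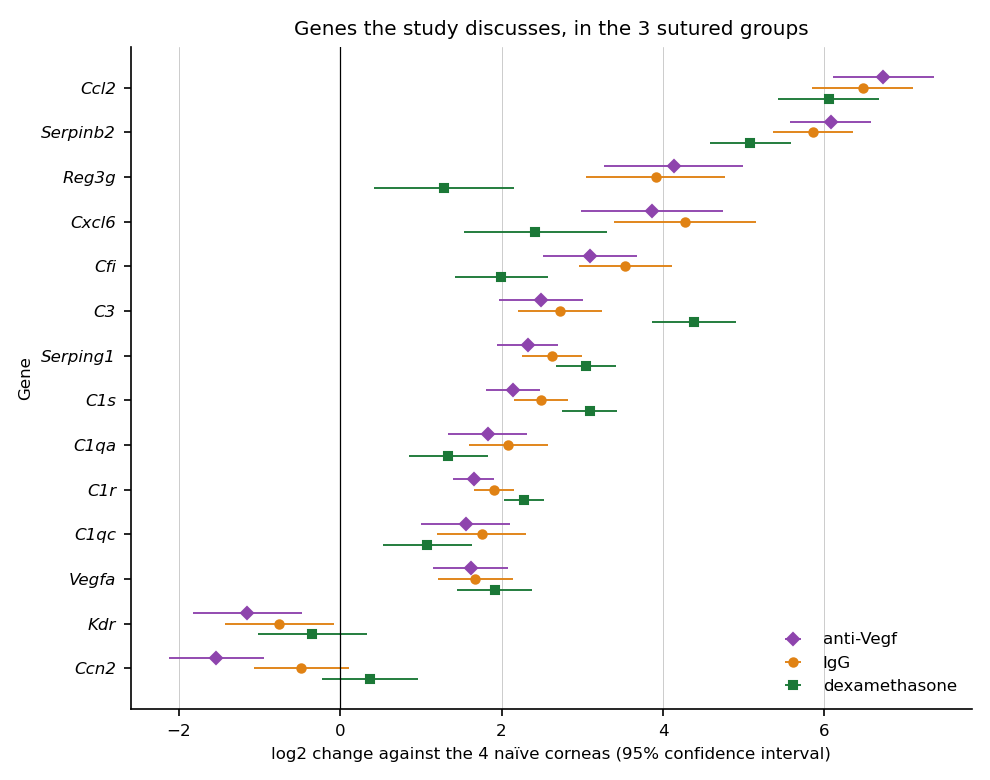
Log2 change from the naïve arrays of 14 genes in anti-*Vegf*, IgG and dexamethasone treated corneas, with 95% confidence intervals from limma (4 arrays per group). The 3 groups share their naïve arrays, and *Reg3g*, *C3* and *Ccn2* show the widest distance between anti-*Vegf* and dexamethasone. The study's *Cxcl5* is shown as *Cxcl6*.

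Between anti-*Vegf* and dexamethasone, limma called 1013 genes (7.13%) at an adjusted p under 0.05, of which 355 (2.5%) were higher and 658 (4.63%) lower with anti-*Vegf*. *Reg3g* had risen by 4.13 with anti-*Vegf* and stood at 1.29 with dexamethasone (difference 2.84, adjusted p = 0.00105). *Lrat* stood at 4.51 and 1.68 (adjusted p = 5.26e-04), *Dmkn* at 3.35 and 1.59 (adjusted p = 5.02e-04) and *Serpinb2* at 6.08 and 5.08 (adjusted p = 0.0196). These genes of epithelium and defence were thus higher with anti-*Vegf*. Complement differed in both directions. *C3* was lower with anti-*Vegf* (2.49) than with dexamethasone (4.39, adjusted p = 5.26e-04), as were *C1s*, *C1r* and *Serping1* (adjusted p = 0.00292, 0.00617 and 0.0221), whereas *Cfi* was higher (3.09 against 2.00, adjusted p = 0.0244). The differences of *C1qa* and *C1qc* did not pass the test (adjusted p = 0.226 and 0.308). Of the matrix genes, *Ccn2* changed by −1.53 with anti-*Vegf* and 0.37 with dexamethasone (adjusted p = 0.00118), and *Col6a1* by −1.55 and −0.25 (adjusted p = 0.00116). *Vegfc* stood at −0.14 and 0.52 (adjusted p = 0.0195), while the difference of *Vegfa*, −0.30, did not pass (adjusted p = 0.47). *Mt2A*, which glucocorticoids are known to induce, was lower with anti-*Vegf* (2.65 against 3.68, adjusted p = 3.02e-04). For *Ccl2* and *S100a9* the differences of 0.67 and 0.40 did not pass either (adjusted p = 0.192 and 0.609).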

How the data were processed

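RNA of each cornea was hybridized to 1 Affymetrix array. For each probe set the authors deposited a log2 signal from RMA, run in Affymetrix Expression Console per the labels, and this signal was used without further normalization, filter or pseudocount. Of 31099 probe sets, 57 controls were set aside and 31042 tested. A gene was read from its probe set with the highest mean signal, and probe sets with several symbols (436) or none (9780) named no gene. limma 3.58.1 in R 4.3.3 was fitted to all 16 arrays in 4 groups (12 residual degrees of freedom), with Benjamini-Hochberg adjustment over all probe sets. The limits of an adjusted p of 0.05 and a fold change of 1.5 follow the study's methods, and the sources used here do not name their test. Direct contrasts between sutured groups used the adjusted p alone. With 4 arrays per group, their number limits the precision. The p-values weigh a difference against the spread between corneas within groups, estimated over all 16 arrays.

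The comparison, the 60 gene lists and the rule for naming genes were chosen with earlier results of these data known. Named were the 12 largest rises and falls without overlap, the 8 further rises and falls with the largest t, up to 4 DEGs and the brightest gene of each list, and genes the study discusses. Genes named outside the rule are said to be so. *C2* was not read. Promoters came from RefSeq (GRCr8), and 13 motifs were searched after other spellings had been tried. Alternatives were an ordinary F test, a mean-variance trend, array weights, a fit of 2 groups, cyclic loess, centring on reference genes (8 of 10 were read), a filter on dim probe sets (40th percentile on 4 arrays), averaging all probe sets of a gene, other fold limits, Storey's q-value (lambda 0.5) and leaving out each array. The ordinary F test took each contrast alone, which equals a t test without moderation. The fit was tested on simulated data. Python 3.11.15, pandas 2.3.3 and matplotlib 3.10.9 were used.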

Additional observations from a re-analysis of the deposited data

Results flagged for a closer look

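Within groups of 4 arrays, 1 array stood apart by Dixon's criterion at the 95% level in 27 of 404 groups of the genes named (6.68%), and chance flags about 1 in 20. *Ccr1* read 8.39 on anti-*Vegf* replicate 2, and 7.25 to 7.34 on the others of its group. *Mmp3* read 5.66 on naïve replicate 3, and 4.01 to 4.09 on the others of its group. *Stat3* read 8.41 on naïve replicate 1, and 9.64 to 9.80 on the others of its group. In the rest the whole group spanned less than 1 on the log2 scale. Anti-*Vegf* replicate 1 was high for *Irf9* (9.36) and low for *Cd59b* (12.96) and *Tnc* (6.47). Anti-*Vegf* replicate 2 was high for *Csf3r* (8.45) and *Slc4a11* (10.24) and low for *Angpt2* (4.03), *C1qa* (7.30) and *Sod2* (11.13). Anti-*Vegf* replicate 3 was high for *Ccr2* (5.18) and *Nrn1l* (6.33). Anti-*Vegf* replicate 4 was high for *Lcn2* (13.25) and *Slc16a1* (9.28). Naïve replicate 1 was high for *C1s* (9.27) and low for *Tlr2* (6.52). Naïve replicate 2 was high for *Vwf* (6.77) and low for *Flt4* (4.81). Naïve replicate 3 was high for *Angpt2* (5.42) and low for *Ccr1* (4.66). Naïve replicate 4 was high for *Aif1* (4.94), *Cnfn* (7.99) and *Esm1* (4.16) and low for *Cd53* (4.86), *Dkk3* (10.94) and *Wnt16* (6.95).

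Of 202 genes that the rule chose and the text describes, 45 differed between anti-*Vegf* and dexamethasone treated corneas in the direct test (limma, adjusted p under 0.05), beside 7.13% of all genes. The rule chose mainly by values of the same anti-*Vegf* arrays and added genes that the study discusses. A larger share than over all genes is therefore no result. The signal was higher with anti-*Vegf* by at least 1 on the log2 scale for *Defb4* (2.90), *Reg3g* (2.84), *Lrat* (2.83), *Stfa3* (2.32), *Dmkn* (1.76), *Cnfn* (1.46), *Cxcl6* (1.44), *Stfa2l2* (1.39), *Cfi* (1.10) and *Serpinb2* (1.00). It was higher by less than 1 for *Ehf* (0.90), *Casp12* (0.90), *Igtp* (0.84), *Arg1* (0.83), *Gap43* (0.75), *Cxcr4* (0.75), *Sprr1a* (0.74), *Rab32* (0.58), *Cldn1* (0.56), *Ccnd2* (0.54), *Tpm2* (0.45) and *Nfkb1* (0.30). It was lower with anti-*Vegf* by at least 1 for *Mamdc2* (−2.14), *C3* (−1.90), *Ccn2* (−1.90), *Col6a1* (−1.29), *Cdh2* (−1.09) and *Mt2A* (−1.03). It was lower by less than 1 for *C1s* (−0.95), *A2m* (−0.92), *Sema3c* (−0.89), *Col8a2* (−0.88), *Col5a1* (−0.83), *Fzd4* (−0.79), *Serping1* (−0.73), *Ackr3* (−0.72), *Aldh1a1* (−0.69), *Vegfc* (−0.66), *Alox5ap* (−0.64), *Lamb3* (−0.63), *C1r* (−0.62), *Vamp2* (−0.59), *Fads1* (−0.55), *Jag1* (−0.52) and *Col1a2* (−0.49). 

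Outside the genes, the poly-A controls differed between anti-*Vegf* and naïve arrays by 1.78 on the log2 scale, with 6.75 to 7.02 against 4.93 to 5.16. Its part in the gene results was not tested.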

How the results depend on the processing

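The count of DEGs, 1814 with 970 higher and 844 lower, stayed within 1.5 times under 9 of the 11 other settings and was 1606 to 1916 there. Without a fold limit 4351 genes were called (2088 higher and 2263 lower), and with a fold limit of 2 the numbers were 714, 454 and 260, of which 63.6% were higher. Centred on reference genes, 42.8% of the calls were higher. Leaving out 1 array gave 1574 to 1970 DEGs, 899 to 1049 of them higher and 675 to 964 lower, with 49.9% to 57.1% higher, and the fewest without anti-*Vegf* replicate 3. Under none of these 19 alternatives was a DEG called the opposite way. Of 261 genes chosen by the rule, 216 were DEGs, and 181 of these kept their call under every alternative that reads them. The other 35 lost it at least once, most often with the fold limit of 2, and 0 changed direction. Some genes that were not DEGs changed sign near 0. Leaving out 1 array, the log2 change lay between −0.052 and 0.013 for *Cd59b*, −0.001 and 0.193 for *A2m*, −0.022 and 0.171 for *Dcn*, −0.116 and 0.266 for *Flt1*, and −0.143 and 0.020 for *Flt4*. *Dcn* stood at −0.006 after cyclic loess, and *Flt1* at −0.027 centred on reference genes and −0.018 as the mean of its probe sets. The cause was not tested. Low signals limit the size of a change that can be read, and a gene near the bottom of the scale has a compressed fold. Numbers of arrays do not pair corneas between groups. No paired analysis was possible because the labels give no replicate numbers that the groups share.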
